A study of Mus musculus with 9 samples.

Results

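The AP-1 transcription factor genes of mouse back skin were followed across the control, IMQ and LYS groups. They were taken by gene symbol as Fos, Fosb, Fosl1, Fosl2, Jun, Junb, Jund, Batf, Atf3 and Maff, which are 10 of the 29205 genes in the deposited table, and each symbol matched 1 row. The skin came from male BALB/c mice aged 6 to 8 weeks, with 3 RNA-seq libraries per group and 9 in all. All mice were shaved and depilated on the back after 7 days of adaptation, and skin was collected on day 13. The control group received no imiquimod (IMQ), an agonist of Toll-like receptors whose cream gives psoriasis-like lesions on mouse skin. The IMQ group received 62.5 mg of a 5% IMQ cream daily on the back for 5 days. The LYS group received the same cream and Longkui Yinxiao soup (LYS), a decoction of herbal drugs given by gavage; the labels name no dose, and the study's methods place the sequenced LYS samples in its high dose group. No group received LYS without IMQ. The lesion is an acute, chemically induced model. The labels do not say that the libraries of a group came from separate mice, so p-values measure the spread between these samples, which may be technical.

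AP-1 is a family of transcription factors that bind DNA as dimers through a basic region and a leucine zipper. Jun proteins pair with each other or with Fos proteins, while Fos proteins need a Jun partner to bind; Batf, Atf3 and Maff are related zipper proteins, and Batf and the small Maf protein Maff lack a transactivation domain of their own. Many of these genes are immediate early genes, whose transcription starts within minutes of a growth factor, stress or inflammatory signal. The ERK, JNK and p38 MAP kinases act on the factors that start this transcription and on the AP-1 proteins themselves. In the epidermis AP-1 takes part in keratinocyte proliferation, differentiation and cytokine production, and mice that lose Junb and Jun in the epidermis develop psoriasis-like skin disease.

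Promoter sequence is shown for Fos, Jun, Junb and Maff, because these members moved together between the control and IMQ groups and have a start whose upstream window holds no annotated exon. Each sequence is the 250 bases before a RefSeq start (GRCm38.p6), read 5' to 3' on the gene's strand, and capitals mark the motif matches found on either strand.
Fos, chr12:85473640-85473889, plus strand: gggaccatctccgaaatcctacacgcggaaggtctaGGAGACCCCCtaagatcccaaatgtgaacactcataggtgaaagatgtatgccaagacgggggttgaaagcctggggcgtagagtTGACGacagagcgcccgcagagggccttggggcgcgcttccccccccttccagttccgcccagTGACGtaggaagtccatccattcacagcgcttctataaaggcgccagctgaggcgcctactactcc
Jun, chr4:95052223-95052472, minus strand: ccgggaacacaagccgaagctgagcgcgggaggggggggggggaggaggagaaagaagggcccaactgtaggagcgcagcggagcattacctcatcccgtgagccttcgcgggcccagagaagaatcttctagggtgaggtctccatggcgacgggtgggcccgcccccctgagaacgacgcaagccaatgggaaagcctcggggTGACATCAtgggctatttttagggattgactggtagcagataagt
Junb, chr8:84978749-84978998, minus strand: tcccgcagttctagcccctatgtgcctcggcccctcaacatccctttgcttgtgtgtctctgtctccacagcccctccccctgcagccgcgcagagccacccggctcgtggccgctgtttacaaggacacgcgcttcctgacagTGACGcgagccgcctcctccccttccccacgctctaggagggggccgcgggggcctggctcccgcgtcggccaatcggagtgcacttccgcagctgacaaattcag
Maff, the second of its listed starts, chr15:79347270-79347519, plus strand: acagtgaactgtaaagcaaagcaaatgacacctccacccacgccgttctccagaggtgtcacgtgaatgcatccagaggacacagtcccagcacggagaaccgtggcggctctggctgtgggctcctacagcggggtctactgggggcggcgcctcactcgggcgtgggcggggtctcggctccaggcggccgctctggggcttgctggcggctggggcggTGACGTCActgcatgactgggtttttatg
The bases TGACG form a part of the cAMP response element; they were matched at 129 and 66 bases before the Fos start and at 106 bases before the Junb start. The full element TGACGTCA lay 29 bases before the Maff start shown, where it also holds TGACG on both strands. The related element TGACATCA lay 45 bases before the Jun start, and an NF-kB site lay 214 bases before the Fos start. A promoter was found for 9 of the 10 members. Among these 9, TGACG was present in 6, against 19.8% of the 27025 genes with a promoter. An NF-kB site was present in 4 (4.46% of genes), TGACATCA in 2 (3.41%) and TGACGTCA in 1 (1.77%). The AP-1 element TGACTCA (5.16% of genes) and the CArG box bound by serum response factor (1.62%) were present in 0 of the 9 members. Maff has several starts and so more bases searched than the other members. The window of its first listed start, chr15:79346371-79346620, also held no annotated exon and had 0 matches. These matches describe letters in a window of 250 bases and were not tested against binding. Bases further upstream were not searched, so a count of 0 holds for the window alone.

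The summed counts were between 14658645 and 19609878 per library, and all 10 members had enough counts to be tested in every comparison. Mitochondrial genes took 3.53% to 5.59% of counts in the control libraries, 2.13% to 2.82% in the IMQ libraries and 1.93% to 2.15% in the LYS libraries. Within each group the libraries varied beyond counting noise (chi-square over degrees of freedom of at least 18.4). Keratin genes of skin were abundant in every library, and the summed basal keratinocyte markers were at least 2259.8 CPM (counts scaled to library size). Levels are given below as CPM scaled between libraries by the TMM method, which sets library sizes from the bulk of genes. Levels of different genes are compared only as FPKM, which also divides by gene length.

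Counts of some members may be too high or too low where their exons overlap another gene, because the counting is not stated to use strand. In the GENCODE M21 annotation (GRCm38), Fosl1 (chromosome 19, 5447547 to 5455946) shares 1163 exon bases with Ccdc85b on the opposite strand, which had up to 720 counts in a library, against at most 60 for Fosl1. Junb (chromosome 8, 84974484 to 84978718) shares 173 exon bases with Prdx2, Jun (chromosome 4, 95049034 to 95052222) shares 232 with the antisense gene Junos, and Jund (chromosome 8, 70698949 to 70700616) shares 877 with the antisense gene Gm11175. The values of these genes, and of Fosl1 above all, are uncertain to that extent. No such overlap of exons was found for Fos (chromosome 12, 85473890 to 85477273), Fosb (chromosome 7, 19302696 to 19310051), Fosl2 (chromosome 5, 32135801 to 32157842), Batf (chromosome 12, 85686669 to 85709087), Atf3 (chromosome 1, 191170296 to 191218039) or Maff (chromosome 15, 79346621 to 79359076). Jun lies on a single exon, and so does Jund.

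The comparison of the IMQ group with the control group asks which AP-1 genes differ in psoriasis-like skin. Junb, Maff, Fosl1, Fos, Jun and Fosl2 were upregulated, by 2.96-fold to 8.79-fold, while Atf3, Batf, Fosb and Jund did not pass the test. A gene was called a differentially expressed gene (DEG) when edgeR's quasi-likelihood test gave an adjusted p below 0.05 with a log2 fold change beyond 0.58 in either direction. By this rule 6 of the 10 members were called, all of them higher, against 51.0% of the 15976 genes tested, of which 24.1% were called higher. Their median log2 fold change was 1.65, against -0.06 over all genes tested. The same 6 members were those whose libraries did not overlap between the groups, against 34.1% of genes not overlapping in the higher direction. In whole skin, fewer cells of a type and less RNA per cell cannot be told apart.

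Among the Jun genes, Junb, which encodes a Jun protein with weaker transactivation than Jun itself, showed the greatest log2 fold change of the 10 members. Its level was 67.2, 66.3 and 93.5 CPM in the control libraries and 397, 762 and 851 CPM in the IMQ libraries. Every IMQ library was thus above every control library, and IMQ 1 was the lowest of its group. The log2 fold change was 3.14 ± 0.31 (SE, n = 3 per group, edgeR adjusted p = 0.000102), an 8.79-fold difference. Jun, the founding member that encodes c-Jun, was at 73.2, 88.7 and 86.6 CPM in the control libraries and at 182, 296 and 350.0 CPM in the IMQ libraries. The groups did not overlap, and the log2 fold change was 1.73 ± 0.23 (edgeR adjusted p = 0.000462). Jund encodes the Jun protein that is expressed most steadily in resting cells. It stood at 41.4, 47.8 and 42.2 CPM in the control libraries and at 28.2, 52.1 and 47.2 CPM in the IMQ libraries. The groups overlapped, with IMQ 1 lowest and IMQ 2 highest of all 6 libraries. Its log2 fold change was -0.06 ± 0.21 (edgeR adjusted p = 0.833).

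Among the Fos genes, Fos, the immediate early gene for c-Fos, was at 22.4, 18.2 and 24.1 CPM in the control libraries and at 65.2, 136 and 192 CPM in the IMQ libraries. All IMQ libraries were above all control libraries, and they differed from each other by 2.94-fold. Its log2 fold change was 2.59 ± 0.36 (edgeR adjusted p = 0.000492). Fosl2 encodes Fra-2, a Fos protein without the transactivation domain of c-Fos. It was at 119.8, 122 and 137 CPM in the control libraries and at 302, 421 and 406 CPM in the IMQ libraries. The groups did not overlap, and the log2 fold change was 1.57 ± 0.16 (edgeR adjusted p = 0.000118). Fosl1 encodes Fra-1, which is low in most resting tissues. It had 5, 2 and 6 counts in the control libraries and 27, 25 and 13 in the IMQ libraries, that is 0.242, 0.0925 and 0.293 CPM against 1.64, 1.86 and 0.953 CPM. The groups did not overlap, although the counts were small. That gave a log2 fold change of 2.79 ± 0.50 (edgeR adjusted p = 0.0018). Fosb, which encodes FosB and its truncated form, did not pass the test. Its level was 4.59, 6.52 and 5.27 CPM in the control libraries and 4.01, 2.68 and 5.43 CPM in the IMQ libraries. The groups overlapped, with a log2 fold change of -0.44 ± 0.30 (edgeR adjusted p = 0.229).

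Of the related zipper genes, Maff, a small Maf gene, followed Junb in size of change. It was at 11.8, 14.2 and 16.1 CPM in the control libraries and at 67.2, 119 and 128 CPM in the IMQ libraries. The groups did not overlap, and the log2 fold change was 2.89 ± 0.25 (edgeR adjusted p = 6.19e-05). Atf3, a stress-induced gene whose product can repress transcription, was at 5.95, 14.8 and 14.1 CPM in the control libraries and at 12.6, 26.8 and 35.5 CPM in the IMQ libraries. IMQ 1 lay within the control range and the other IMQ libraries above it. The log2 fold change of 1.09 ± 0.43 missed the threshold (edgeR adjusted p = 0.0578) and passed it in DESeq2 (adjusted p = 0.0228), with no filter on low counts (0.0206) and without IMQ 1 (log2 fold change 1.43, 0.00723). Batf, which is needed for the formation of Th17 cells, was at 3.63, 2.17 and 2.44 CPM in the control libraries and at 3.04, 5.44 and 4.18 CPM in the IMQ libraries. The groups overlapped, with a log2 fold change of 0.61 ± 0.31 (edgeR adjusted p = 0.124). With library totals alone as the scaling, the 6 higher calls stayed and Fosb was also called, as lower (log2 fold change -0.88, edgeR adjusted p = 0.0316); over all genes 2390 calls were then higher and 6854 lower, against 3854 and 4291 under TMM.

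**Figure D1:**
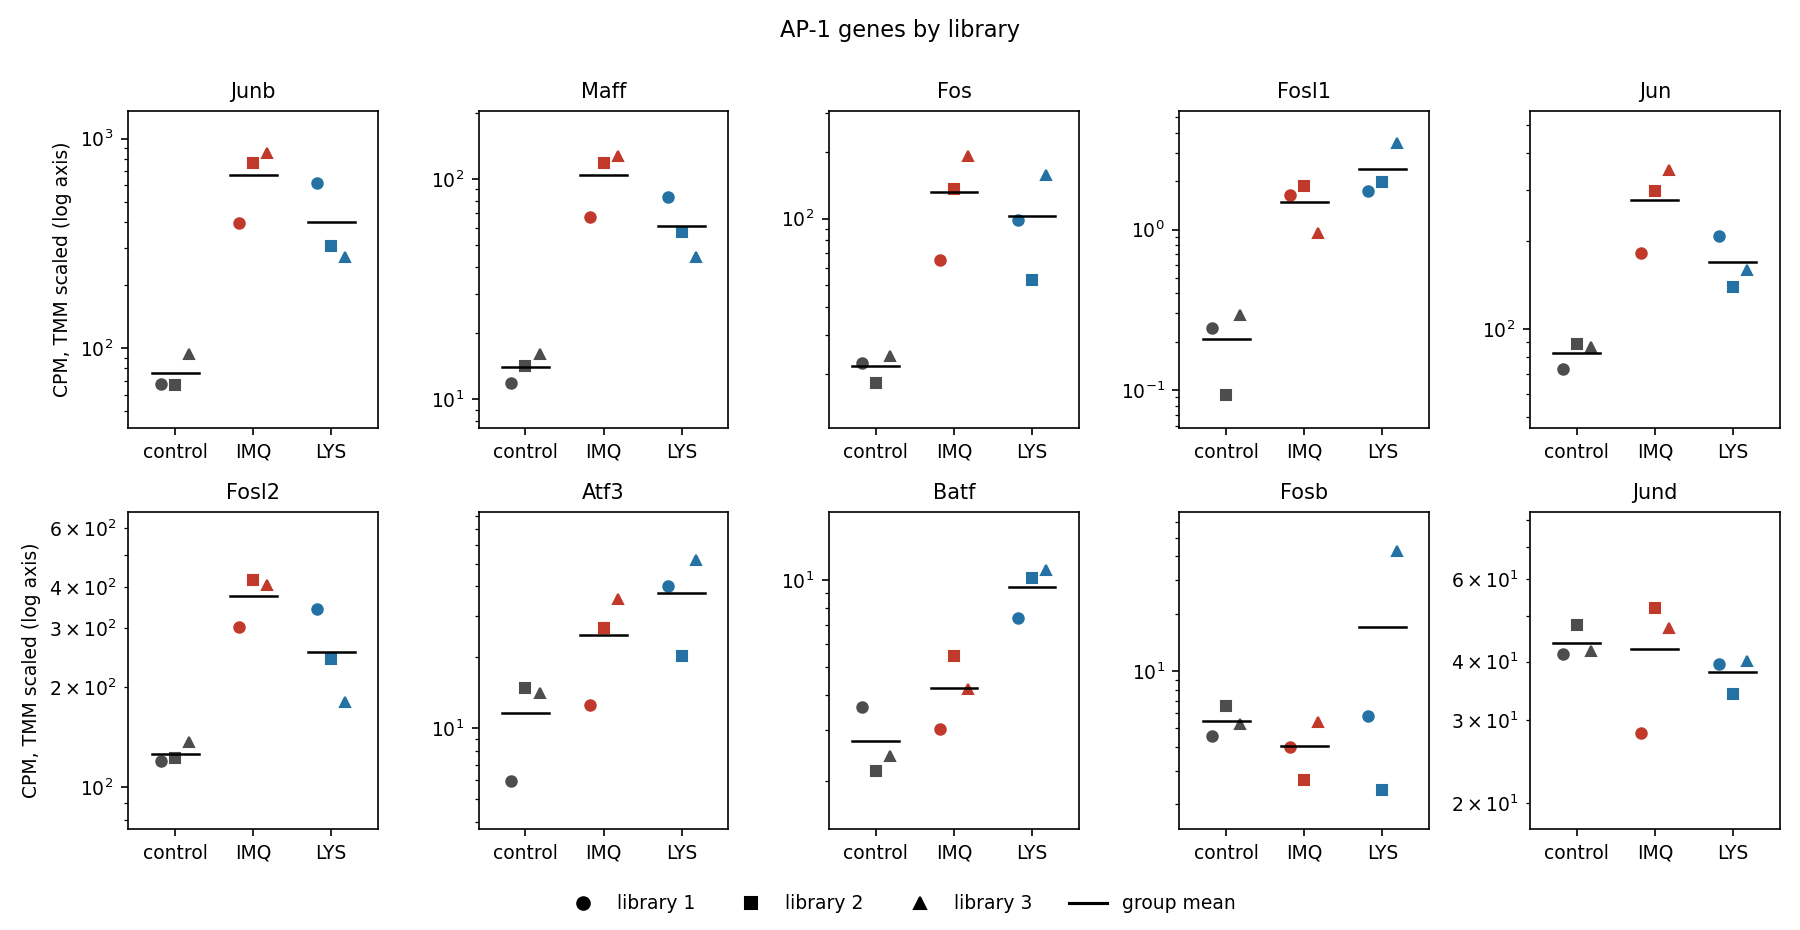
Level of each of the 10 AP-1 genes in the 9 libraries, in CPM scaled by TMM on a log axis that differs between panels; points are libraries and bars are means of 3. For Junb, Maff, Fos, Fosl1, Jun and Fosl2 all IMQ libraries lie above all control libraries, the LYS libraries of Batf lie above all others, and LYS 3 stands apart for Fosb at 42.8 CPM.

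**Figure D2:**
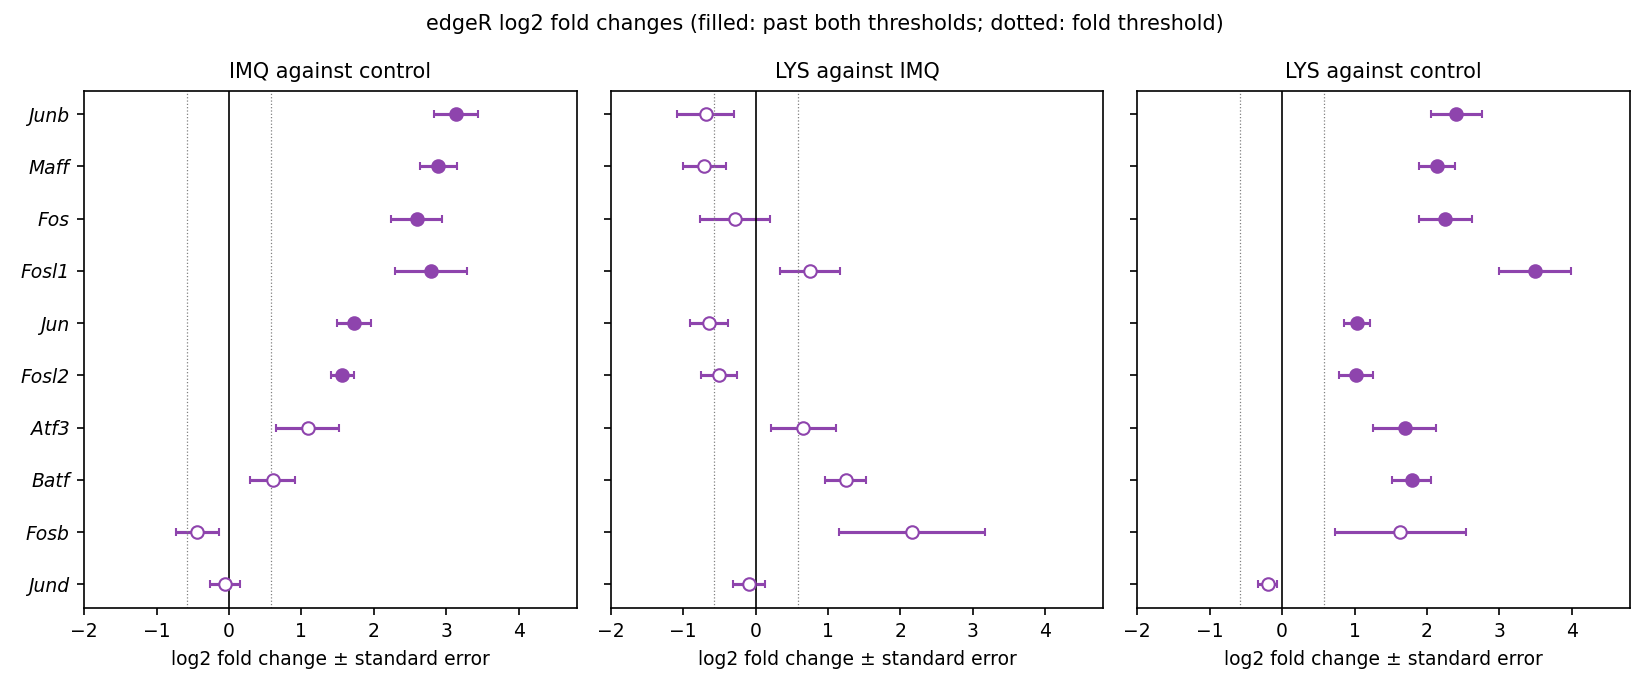
Log2 fold changes with their standard errors from edgeR in the 3 comparisons, with filled points for genes past both thresholds and dotted lines at a log2 fold change of 0.58 in either direction. The filled points number 6 in IMQ against control, 0 in LYS against IMQ and 8 in LYS against control.

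The comparison of the LYS group with the IMQ group asks which AP-1 genes differ when LYS is given beside IMQ. In edgeR 0 of the 10 members were called, as were 0% of the 15460 genes tested, and the smallest adjusted p over all genes was 0.0591. An unadjusted p under 0.05 was reached by 3 members, which were Batf (higher), Jun and Maff (both lower), and by 5435 genes in all. DESeq2 called 22.0% of 15180 genes and 1 member, Batf. The members' median log2 fold change was -0.19, against 0.04 over all genes tested. Batf was also the only member whose LYS libraries did not overlap the IMQ libraries, and it was higher, as were 16.8% of genes. This comparison shares the IMQ libraries with the comparison of IMQ with control.

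For 5 of the 6 members that IMQ raised, the LYS mean lay below the IMQ mean, with overlapping libraries. Junb was at 617, 306 and 274 CPM in the LYS libraries, and LYS 1 lay inside the IMQ range while the others lay below it. Its log2 fold change was -0.69 ± 0.39 (edgeR adjusted p = 0.24). Maff was at 82.8, 57.4 and 44.4 CPM, again with LYS 1 inside the IMQ range and the others below. It had a log2 fold change of -0.71 ± 0.29 (edgeR adjusted p = 0.139). Jun was at 208, 139.7 and 159 CPM in the LYS libraries, with LYS 1 once more inside the IMQ range, and its log2 fold change was -0.64 ± 0.26 (edgeR adjusted p = 0.132). Fosl2 was at 342, 243 and 179.9 CPM, with the same order between libraries as Junb and Maff, and its log2 fold change was -0.50 ± 0.25 (edgeR adjusted p = 0.189). LYS 1 was the highest LYS library for each of these 4 genes. Without LYS 1, Fosl2 (log2 fold change -0.76, edgeR adjusted p = 0.0371), Junb (-1.13, 0.0431), Maff (-0.96, 0.0466) and Batf (1.40, 0.0155) were called, when 26.8% of all genes tested were. Without IMQ 1 only Jun was called among the members (-0.88, edgeR adjusted p = 0.0475), and 11.8% of all genes were. With 2 libraries left in an arm, these fits rest on a small number of samples.

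Fos showed another order of libraries, with 98.3, 52.7 and 157 CPM in the LYS group. The LYS range overlapped the IMQ range, LYS 2 was the lowest and LYS 3 the highest. The log2 fold change was -0.28 ± 0.49 (edgeR adjusted p = 0.704), and its sign changed when library totals alone were used for scaling (0.0093) and when IMQ 3 (0.11) or LYS 2 (0.037) was left out. Fosl1 had 25, 35 and 60 counts in the LYS libraries, or 1.75, 1.98 and 3.44 CPM, of which LYS 1 lay inside the IMQ range. The log2 fold change was 0.76 ± 0.41 (edgeR adjusted p = 0.229). Atf3 was at 40.03, 20.3 and 52.1 CPM, with LYS 2 inside the IMQ range and the others above it, and a log2 fold change of 0.66 ± 0.45 (edgeR adjusted p = 0.322). Jund was at 39.5, 34.2 and 40.2 CPM, all inside the IMQ range, with a log2 fold change of -0.09 ± 0.22 (edgeR adjusted p = 0.788) whose sign changed with library totals alone (0.18).

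The comparison of the LYS group with the control group asks what differs from untreated skin when both agents are given. In edgeR 8 of the 10 members were called, all higher, against 28.0% of the 16003 genes tested, of which 15.1% were called higher. The members' median log2 fold change was 1.74, against -0.01 over all genes. The libraries of 8 members did not overlap in the higher direction (25.0% of genes) and those of 1 member, Jund, did not overlap in the lower direction (25.3% of genes). With library totals alone as the scaling, the 8 higher calls stayed, and over all genes 1917 calls were higher and 2706 lower, against 2412 and 2064 under TMM. These values share the control libraries with the comparison of IMQ with control, and they are given beside it without a test of the difference.

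The 6 members raised by IMQ were also higher in the LYS group than in the control group. For Junb the log2 fold change was 2.41 ± 0.35 (edgeR adjusted p = 0.00287), and it had been 3.14 for IMQ. For Fosl1 it was 3.49 ± 0.50 (edgeR adjusted p = 0.00278), an 11.2-fold difference, against 2.79 for IMQ. Fos was higher by 2.25 ± 0.37 (edgeR adjusted p = 0.00441) and Maff by 2.14 ± 0.25 (0.00146). Jun was higher by 1.04 ± 0.18 (edgeR adjusted p = 0.00607) and Fosl2 by 1.02 ± 0.24 (0.0165). Batf and Atf3 joined them, with log2 fold changes of 1.79 ± 0.27 (edgeR adjusted p = 0.00335) and 1.69 ± 0.43 (0.0219). The calls of Fosl2 and Atf3 were lost without control 1 (edgeR adjusted p = 0.0657 and 0.0655) and without control 2 (0.0576 and 0.056). Jund had a log2 fold change of -0.20 ± 0.13 (edgeR adjusted p = 0.268) although each LYS library was below each control library. Fosb had 1.63 ± 0.91 (edgeR adjusted p = 0.203).

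The LYS mean of Fosb rested on a single library. Its level was 5.80 CPM in LYS 1, 2.38 CPM in LYS 2 and 42.8 CPM in LYS 3, from 83, 42 and 745 counts. LYS 3 was thus 7.38 times the next LYS library, while LYS 1 lay within the range of the other groups and LYS 2 below it. Genes were also ordered by the log2 ratio of LYS 3 to the next LYS library, with 1 added to each CPM. Among 14766 genes with a mean of at least 1 CPM, Fosb had the highest such ratio (2.69), and the gene after it had 2.38. Without LYS 3 the log2 fold change of Fosb went from 2.16 to 0.05 against IMQ, and from 1.63 to -0.42 against control (edgeR adjusted p = 0.456). Of the other members, Fos, Fosl1, Atf3, Batf and Jund were also highest in LYS 3 within the group, by 1.02 to 1.74 times the next library, while Fosl2, Junb and Maff were lowest there. Fos ranked 311 and Junb 14203 in the same order of 14766 genes. LYS 1 was the highest LYS library for 13 of 20 other immediate early genes, LYS 3 for 7 and LYS 2 for 0. Over the 14766 genes these shares were 45.7%, 33.3% and 20.8%. Egr1, Ier2 and Ier3 were among those highest in LYS 1, and Nr4a1, Ccn1 and Klf2 among those highest in LYS 3. LYS 3 also had the lowest sum of neutrophil markers in the group, at 5834 CPM, and the highest sum of fibroblast markers, at 18040.3 CPM. S100a8 (2604 CPM) and S100a9 (3088 CPM) made up most of that neutrophil sum. Ngp, another neutrophil marker, was highest in LYS 3, at 8.90 CPM against 0.489 (LYS 1) and 0.905 (LYS 2). The part of these sums in the Fosb value was not tested.

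**Figure D3:**
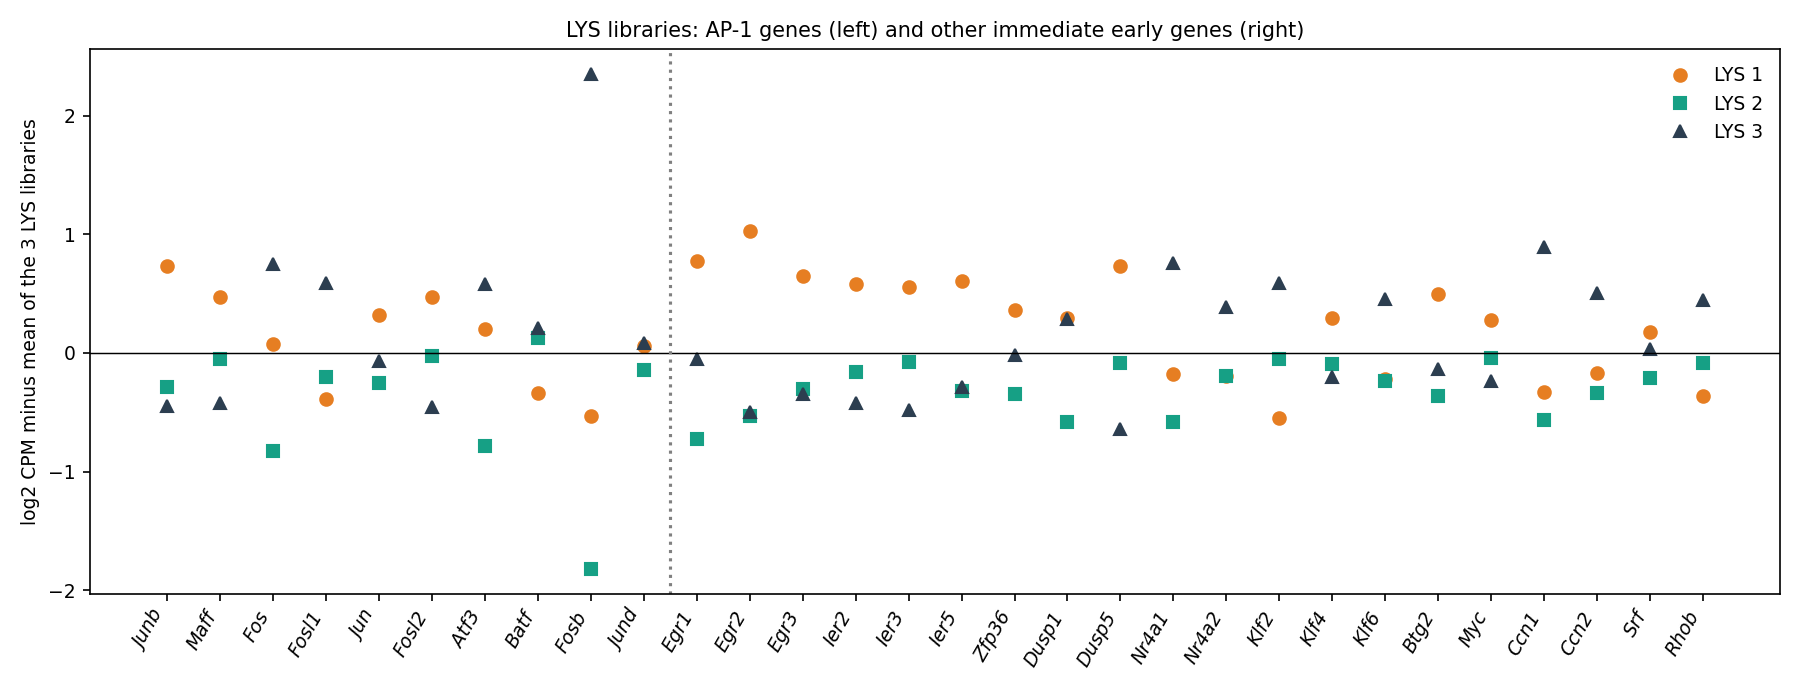
Log2 CPM in each LYS library minus the mean of the 3 LYS libraries, for the 10 AP-1 genes on the left of the dotted line and the 20 other immediate early genes on the right. Fosb has the widest spread, with LYS 3 on top, and the other immediate early genes are highest in LYS 1 (13 of 20, against 45.7% of 14766 genes) or LYS 3 (7 of 20, against 33.3%).

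Among the 10 genes, Junb had the highest FPKM in 9 of 9 libraries, and the order below it changed with IMQ. In the control group Junb was at 41.8 ± 8.55 FPKM (mean ± SD, n = 3), followed by Jund (26.3 ± 2.09), Jun (26.0 ± 2.63), Fosl2 (13.0 ± 0.948), Fos (9.17 ± 1.30), Maff (5.41 ± 0.819), Atf3 (5.39 ± 2.28), Batf (1.95 ± 0.550), Fosb (0.875 ± 0.157) and Fosl1 (0.103 ± 0.0512). Jund and Jun overlapped, as did Maff and Atf3, and the libraries of the other neighbours in this order did not. In the IMQ group Junb was at 370.5 ± 133 FPKM, Jun at 86.5 ± 26.9, Fos at 55.7 ± 26.9, Maff at 40.4 ± 12.6, Fosl2 at 38.9 ± 6.66, Jund at 25.5 ± 7.57, Atf3 at 11.6 ± 5.37, Batf at 3.00 ± 0.854, Fosl1 at 0.731 ± 0.233 and Fosb at 0.647 ± 0.220. Jun, Fos and Maff each overlapped the next in this order, as did Fosl1 and Fosb, whereas Junb, Fosl2, Jund, Atf3 and Batf each stood clear of the next. In the LYS group Junb was at 220.5 ± 105 FPKM and Jun at 53.0 ± 11.1, again without overlap. Fos (43.6 ± 22.2), Fosl2 (26.4 ± 8.47), Maff (23.7 ± 7.52), Jund (22.8 ± 1.96) and Atf3 (17.4 ± 7.46) followed. Batf (6.74 ± 1.30), Fosb (2.72 ± 3.59) and Fosl1 (1.18 ± 0.453) came last. From Jun to Fosl1 each gene overlapped the next in this order, except that Atf3 stood clear of Batf. The FPKM of Junb rests on a length of 1809 bases, shorter than its 2301 annotated exon bases, and is higher for that than with the annotated length.

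Of the summed FPKM of the 10 genes, Junb made up 32.0% ± 3.70 (SD, n = 3) among control libraries, 58.2% ± 1.40 among IMQ libraries and 51.4% ± 9.72 among LYS libraries. Jund made up 20.3% ± 2.48, 4.10% ± 0.490 and 5.71% ± 1.32 in the same order, while its own level differed little. Jun made up 20.01% ± 1.47, 13.8% ± 0.820 and 12.9% ± 1.18. The sum itself was 130.0 ± 13.3 FPKM for control, 633 ± 217 for IMQ and 418 ± 129.6 for LYS. The 3 Jun genes together therefore held most of the summed FPKM in every library, as the plot of shares shows. In LYS 3 Junb held 41.1%, its lowest share outside the control libraries, and Fos held 18.1%, its highest share in any library.

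**Figure D4:**
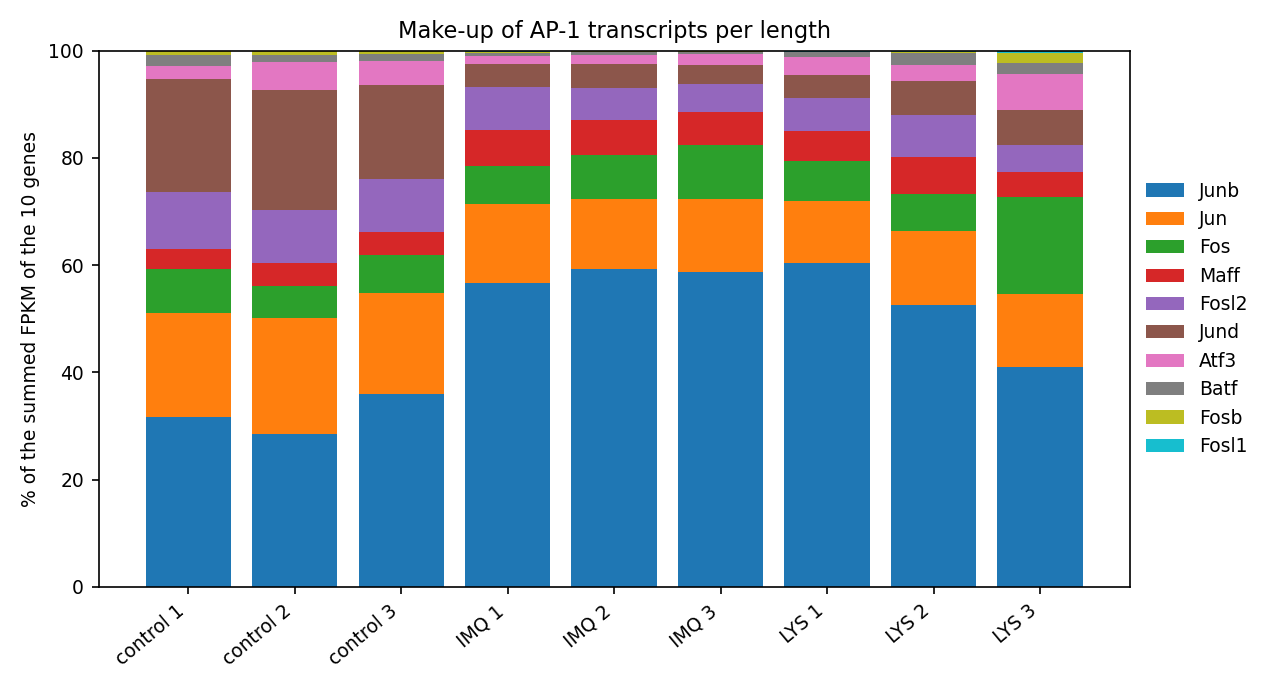
Share of each AP-1 gene in the summed FPKM of the 10 genes, in percent, with a bar for each of the 9 libraries. Junb takes 28.5% to 35.9% in the control libraries, 56.6% to 59.3% in the IMQ libraries and 41.1% to 60.4% in the LYS libraries, while Jund takes 17.6% to 22.3% in the control libraries and less than that in every other library.

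Ratios within a library do not depend on the scaling between libraries, and 3 ratios were compared in 3 comparisons each. The exact permutation test (two-sided) cannot go below p = 0.1 with 3 against 3 libraries, so none of the 9 tests could pass 0.05. The log2 ratio of Jun to Junb was -0.69, -0.40 and -0.93 in the control libraries, -1.94, -2.18 and -2.10 in the IMQ libraries and -2.38, -1.95 and -1.60 in the LYS libraries. It was lower in all IMQ than in all control libraries, with a difference of -1.40 (exact p = 0.1, adjusted p = 0.18), and differed by -1.30 between LYS and control (exact p = 0.1, adjusted p = 0.18). The log2 ratio of Junb to Jund was 0.58, 0.35 and 1.03 in the control libraries, 3.69, 3.75 and 4.05 in the IMQ libraries and 3.84, 3.04 and 2.65 in the LYS libraries. The difference was 3.18 between IMQ and control (exact p = 0.1, adjusted p = 0.18) and -0.65 between LYS and IMQ (exact p = 0.3, adjusted p = 0.338), where LYS 1 lay within the IMQ range. The log2 ratio of Fosl1 to Fosl2 was -5.92, -6.54 and -5.97 in the control libraries, -5.10, -5.39 and -6.15 in the IMQ libraries and -5.21, -4.56 and -3.39 in the LYS libraries. LYS and control did not overlap in this ratio, with a difference of 1.76 (exact p = 0.1, adjusted p = 0.18), while LYS and IMQ overlapped (1.16, exact p = 0.2, adjusted p = 0.3). All these ratios add 0.1 to each FPKM, and TMM-scaled Fosl1 was at 0.119, 0.0455 and 0.144 FPKM in the control libraries. The sizes of the Fosl1 ratios, and whether IMQ and control overlap in them, therefore depend on that constant.

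Batf was the only member whose LYS libraries all lay above both other groups. Its level was 7.40, 10.2 and 10.8 CPM in the LYS libraries from 106, 180 and 189 counts, against 3.04 to 5.44 CPM in the IMQ and 2.17 to 3.63 CPM in the control libraries. The log2 fold change against IMQ was 1.24 ± 0.29 (edgeR adjusted p = 0.0591). It passed in DESeq2 (adjusted p = 0.00285), in edgeR with all 9 libraries in a single fit (0.0267, where 18.5% of genes were called), with no filter on low counts (0.0246) and without LYS 1 (0.0155), and over all its alternatives the adjusted p was between 0.00285 and 0.22. DESeq2 without LYS 3 called 0 members in this comparison, when 9.16% of 14280 genes were called. Batf was then at a log2 fold change of 1.10 (DESeq2 adjusted p = 0.0537). The related gene Batf3, which is needed for a class of dendritic cells, was at 4.47, 10.2 and 10.7 CPM in the LYS libraries, at 2.07, 4.25 and 2.93 CPM in the IMQ libraries and at 2.03, 2.27 and 2.49 CPM in the control libraries. Its log2 fold change was 1.54 ± 0.42 against IMQ (edgeR adjusted p = 0.0661) and 1.90 ± 0.35 against control (0.0066). Summed markers of some immune cells were also higher in the LYS libraries, but the rise was not particular to immune cells. By fold change of any size against IMQ, fibroblast, endothelial and adipocyte markers were higher (8 of 8 each). Suprabasal keratinocyte markers were lower (8 of 8). The 8 T cell markers summed to 13.4 to 16.8 CPM in the control libraries, 18.9 to 25.4 CPM in the IMQ libraries and 26.2 to 33.6 CPM in the LYS libraries. The 8 macrophage and dendritic cell markers summed to 1334 to 2179 CPM, 1412 to 1647 CPM and 2079 to 3918 CPM. Both sums were higher in all LYS than in all IMQ libraries, whereas the sum of neutrophil markers, mostly S100a8 and S100a9, was lower. By fold change of any size against IMQ, 7 of 8 T cell markers were higher and Cd5 was lower (log2 fold change -0.85, edgeR adjusted p = 0.0912). Of the macrophage and dendritic cell markers 6 of 8 were higher, and Cd14 (-1.01, edgeR adjusted p = 0.227) and Itgax (-0.61, 0.165) were lower. None of these 16 genes was called in this comparison or listed at 0, and their part in the values of Batf and Batf3 was not tested.

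**Figure D5:**
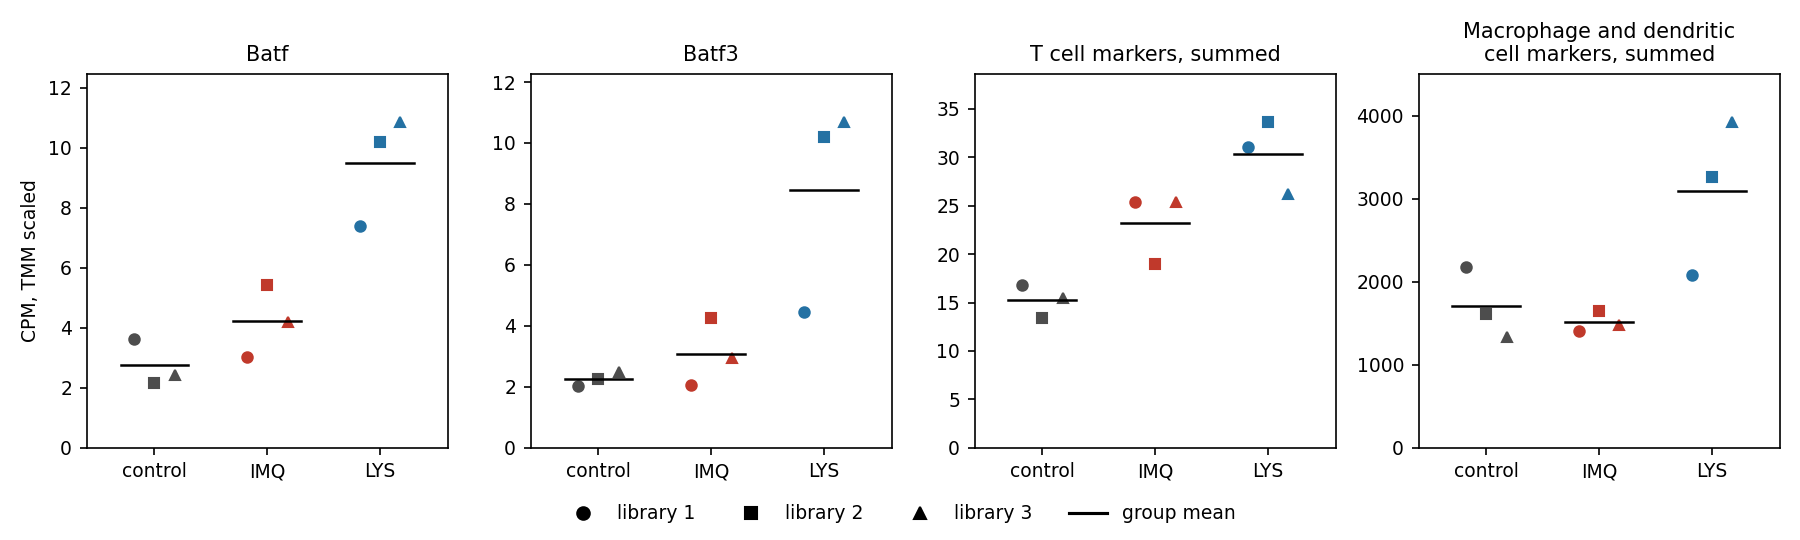
Batf, Batf3 and the summed markers of T cells and of macrophages and dendritic cells in each library, in CPM scaled by TMM on linear axes that start at 0, with bars at the means of 3 libraries. In each panel all 3 LYS libraries lie above all 3 IMQ libraries, and the Batf values of LYS are 7.40 to 10.8 CPM.

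Of 15 kinases of the ERK, JNK and p38 routes, 14 were tested, and in IMQ against control 8 were called higher and 4 lower. Over all genes tested, 24.1% were called higher and 26.9% lower. The median log2 fold change of the kinases was 0.78. Mapk13 (p38 delta) was higher by 3.43 ± 0.25 (edgeR adjusted p = 3.18e-05), Map2k3, an activator of p38, by 1.81 ± 0.16 (7.28e-05) and Map2k4, an activator of JNK and p38, by 1.58 ± 0.14 (6.69e-05). Mapk14 (p38 alpha) was higher by 1.28 ± 0.12 (edgeR adjusted p = 7.56e-05). Among those lower were the JNK genes Mapk8 (-0.67 ± 0.13, edgeR adjusted p = 0.00245) and Mapk9 (-0.94 ± 0.17, 0.00185). In LYS against IMQ the median was -0.19 and 0 were called, with -1.24 ± 0.28 for Mapk13 (edgeR adjusted p = 0.0591), -0.83 ± 0.17 for Map2k4 (0.0591) and -0.69 ± 0.19 for Map2k3 (0.0676). In LYS against control 6 were called higher and 1 lower, against 15.1% and 12.9% of all genes tested, and the kinases' median was 0.49. These are transcript levels and say nothing of phosphorylation.

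Of 14 other zipper genes that can pair with AP-1 proteins, 5 were called higher and 2 lower in IMQ against control. Over all genes tested, 24.1% were called higher and 26.9% lower, 51.0% in either direction. The median log2 fold change of the 14 genes was 0.40. Nfe2l2, the regulator of the oxidative stress response, was higher by 1.42 ± 0.13 (edgeR adjusted p = 7.28e-05) and Bach1, a repressor that pairs with small Maf proteins, by 1.2 ± 0.13 (0.000167). In LYS against IMQ 0 were called and the median was 0.10, with the greatest differences for Batf2 (1.73 ± 0.64, edgeR adjusted p = 0.108), Batf3 (given above) and Maf (0.96 ± 0.23, 0.0605). In LYS against control 6 were called higher and 0 lower (median 0.56), against 15.1% and 12.9% of all genes tested.

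Of 20 other immediate early genes, 11 were called higher and 4 lower in IMQ against control (median log2 fold change 0.89). The shares over all genes tested were 24.1% and 26.9%. Ier3, a survival gene, was higher by 4.27 ± 0.33 (edgeR adjusted p = 3.89e-05), the ERK phosphatase gene Dusp5 by 3.88 ± 0.36 (8e-05), Ier5 by 2.81 ± 0.25 (6.39e-05) and Egr1, a zinc finger factor, by 1.25 ± 0.26 (0.00357). The 4 that were lower were Ccn1, Ccn2, Klf2 and Rhob, of which Ccn1, a secreted matrix protein gene, changed by -2.02 ± 0.29 (edgeR adjusted p = 0.000662). In LYS against IMQ 0 were called (median -0.46), with 2.06 ± 0.49 for Ccn1 (edgeR adjusted p = 0.0605), 1.38 ± 0.31 for Klf2 (0.0591) and -1.31 ± 0.41 for Dusp5 (0.0804). In LYS against control 7 were called higher and 1 lower (median 0.42), against 15.1% and 12.9% of all genes tested.

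Of 20 genes with AP-1 elements known in their control regions, 18 were tested in IMQ against control. Of these, 12 were called higher and 2 lower (median log2 fold change 2.50), against 24.1% and 26.9% of all genes tested. The greatest changes were those of S100a9 (9.75 ± 0.75, edgeR adjusted p = 3.73e-05) and S100a8 (9.60 ± 0.93, 9.7e-05), which encode the subunits of calprotectin, and of Il1b (9.56 ± 0.69, 2.96e-05), which encodes interleukin-1 beta. S100a8 and S100a9 are also on the neutrophil marker list, so that list is not separate from them. In IMQ 2 they were at 13112 and 15122 CPM, of a neutrophil sum of 28482 CPM. In LYS against IMQ 0 of 19 were called (median -0.25), with 2.07 ± 0.56 for the matrix gene Tnc (edgeR adjusted p = 0.0652), -1.81 ± 0.55 for the cornified envelope gene Lor (0.0759) and 1.69 ± 0.37 for the protease inhibitor gene Timp1 (0.0591). In LYS against control 15 of 18 were called higher and 1 lower (median 2.13), against 15.1% and 12.9% of all genes tested.

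Summed marker levels of several cell types differed between the groups. Suprabasal keratinocyte markers summed to 5146 to 8413 CPM in the control libraries, 34935 to 54893 CPM in the IMQ libraries and 13871 to 25623 CPM in the LYS libraries, and 8 of 8 were higher in IMQ against control. Basal keratinocyte markers summed to 2259.8 to 3348 CPM, 11030.4 to 12977 CPM and 7585 to 13355 CPM, with 6 of 8 higher and 1 lower. Neutrophil markers summed to 38.5 to 89.4 CPM, 21104 to 28482 CPM and 5834 to 17316 CPM, with 5 of 7 higher and 1 lower. S100a8 and S100a9 made up most of this sum in the IMQ and LYS libraries. The defining markers Ly6g and Mpo were at 0 in some libraries. Fibroblast markers summed to 22194 to 28304 CPM, 3414 to 10798 CPM and 9304 to 18040.3 CPM, with 7 of 8 lower. Of 7 hair follicle genes tested, 7 were lower, from 1866 to 3880 CPM in the control libraries to 4.10 to 4.92 CPM in the IMQ libraries. Endothelial (5 of 8), skeletal muscle (6 of 8) and adipocyte markers (8 of 8) were also lower in IMQ against control. Of the 8 T cell markers 4 were higher and 2 lower, and of the 8 macrophage and dendritic cell markers 2 were higher and 2 lower. These counts are of genes called in IMQ against control, where 24.1% of all genes tested were called higher and 26.9% lower. In LYS against IMQ 0 markers of any list were called. The keratinocyte sums moved with Junb, Maff, Jun and Fosl2 between the control and IMQ groups, and their part in the values of these genes was not tested.

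Genes with the most similar pattern were found by the mean absolute difference in log2(CPM + 1) over the 9 libraries, each gene centred on its own mean, among 14556 genes. Junb was closest to Fam162a (0.135), Hspa1b (0.137) and Maff (0.163), so that another member was among its 3 nearest genes. Maff was closest to Slc66a2 (0.0997), Ier5 (0.101) and Scnn1g (0.110), and Junb was in place 12. Fosl2 had the closest match of the 10, Tuba1c (0.0572), followed by Tmem238 (0.0669) and Il1rap (0.07), against a range of 1.80 for Fosl2 itself. Jun was closest to Gm45854 (0.0834), Gabarapl2 (0.0845) and Sertad1 (0.0865). Batf was closest to Syk (0.119), Arhgap30 (0.128) and Tnfaip8l2 (0.133). Fosl1 was closest to Clcf1 (0.173), Sh3bp2 (0.176) and Pilrb2 (0.179), and Jund, with a range of only 0.86, to Tmem189 (0.0661), Dph3 (0.0917) and Mterf4 (0.105). By these differences, which are not scaled to a gene's range, no gene followed Fosb, Atf3 or Fos as closely. The range was 3.70 for Fosb, 2.93 for Atf3 and 3.33 for Fos, beside 3.66 for Junb, 3.33 for Maff and 2.02 for Fosl1. The nearest were Rfx2 (0.443) and Apoe (0.452) for Fosb, Tnfaip3 (0.380), Sln (0.382) and Lilra6 (0.398) for Atf3, and Lce1l (0.273), Gm38119 (0.289) and Gm9696 (0.316) for Fos. All 9 points come from the same libraries for both genes of a pair, and nothing about shared control was tested.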

How the data were processed

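Total RNA of back skin was extracted with TRIzol, and libraries made with the NEBNext Ultra kit were sequenced on an Illumina instrument. The authors deposited a single table with whole-number read counts per gene and the FPKM computed from them for each of the 9 libraries, without normalization of the counts between libraries. The submitters' processing notes name HISAT2, HTSeq 0.13.5 and GRCm38, and the annotation release is not given in the sources used here. Each deposited FPKM equalled the count per gene length and summed counts, using the GENCODE M21 exon length in 98.5% of cases (29128 genes could be compared). The table also held 0 sample columns that could not be matched. Groups and replicate numbers come from the sample titles.

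Counts were tested in R 4.3.3 with the quasi-likelihood functions of edgeR 4.0.16 (glmQLFit and glmQLFTest, after filterByExpr and TMM) on the 6 libraries of the compared groups, with Benjamini-Hochberg adjustment over all genes tested. DEGs were called at the study's thresholds, adjusted p below 0.05 with a log2 fold change beyond 0.58 either way. CPM and the FPKM used to compare genes were scaled by TMM factors over the 9 libraries. The deposited FPKM gave the ratios within a library, as log2(FPKM + 0.1). The tests were checked on simulated data. Alternatives were DESeq2 1.42.0, other scalings, no filter, all 9 libraries, no fold threshold, a replicate block and each library left out; DESeq2 without LYS 3 was added after the data had been seen.

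All 10 members are named. From each of 14 lists (the 10 genes apart: other dimer partners, kinases, immediate early genes, AP-1 targets and markers of 10 cell types), the text may name the 3 genes with the greatest change in IMQ against control and in LYS against IMQ, and Egr1 and Mapk14; the other list genes named were chosen after their values were seen. For each member the 3 genes of most similar pattern are named. The values of 2 genes that these rules select are not reported here, and they were kept in the fits and counts. The members and lists were chosen with earlier results of these data known. Promoters came from RefSeq. Protein and qPCR measurements of the study were not used here.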

Additional observations from a re-analysis of the deposited data

How the results depend on the processing

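In IMQ against control the number of members called was 6 or 7 under every alternative and in every fit that left out a library. Over all genes tested, 31.4% to 60.5% were called in these fits. In LYS against control it was 6 to 8 members, when 15.8% to 32.1% of all genes were called. The fits with 6 were those without control 1 (15.8% of all genes) and without control 2 (18%). In LYS against IMQ, 0 in the edgeR fit became 1 with DESeq2 (22.0% of all genes called), 1 with no filter on low counts (8.83%), 1 when the fit held all 9 libraries (18.5%), and 0 to 4 over the fits that left out a library (4 without LYS 1, with 26.8% of all genes, and 1 without IMQ 1, with 11.8%). The cause was not tested. Of the single-gene values, 353 kept their direction and side of the threshold, 13 newly passed it, 5 no longer passed it and 9 changed sign. Jund in IMQ against control went to 0.0078 without control 2 and ranged from -0.21 to 0.19 over the fits that left out a library. Fos in LYS against IMQ went to 0.0093 with library totals alone, 0.11 without IMQ 3 and 0.037 without LYS 2 (range -0.75 to 0.11 with a library left out), and Jund in the same comparison to 0.18 with library totals alone and 0.061 without IMQ 2 (range -0.32 to 0.061). Fosb in LYS against control went to -0.42 without LYS 3 in edgeR and to -0.42 in DESeq2, and ranged up to 2.15 with another library left out. Of the ratios, Jun to Junb in LYS against IMQ ranged from -0.089 to 0.30 over the fits that left out a library, and Fosl1 to Fosl2 in IMQ against control went from 0.60 to -0.54 with log2(FPKM + 1). At FPKM values under 1, as for Fosl1, that pseudocount outweighs the level. The 0.1 added in the main ratios is also close to the control mean of Fosl1 (0.103 FPKM).

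Library totals alone in place of TMM moved the median log2 fold change of all genes from -0.06 to -0.51 in IMQ against control, from 0.04 to 0.29 in LYS against IMQ and from -0.01 to -0.15 in LYS against control. Relative to that median, Junb in IMQ against control was 3.20 under TMM and 3.17 under library totals.

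Deviations of libraries with the same replicate number correlated between -0.46 and 0.20, so the numbers were not taken as pairs. With the replicate block 7 members were called in IMQ against control (Atf3 added, adjusted p = 0.00171 in edgeR; 50.4% of all genes called), 0 in LYS against IMQ (0 of 15460 genes in edgeR, 3385 at an unadjusted p under 0.05) and 7 in LYS against control (Fosl2 lost, 0.0502; 19.5% of all genes). Depth limits Fosl1 most, with 2 to 60 counts per library.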
